A study of Mus musculus with 10 samples.

Results

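The genes that surround the mouse immunoglobulin heavy chain (IgH) locus were described on both of its sides. They are the 156 genes, of 46959 in the count table, that lie on chromosome 12 from position 111000000 onward (mm10, which is GRCm38) and whose names do not mark them as V, D, J or constant segments of the locus. The last of them ends at 120019211, and 215 segments of the locus in the same stretch were left out by name. The locus runs from 113254830, the start of Igha, to 116010093, the end of its last V segment, over 2.755 Mb. On the constant side, below Igha, lie 68 of the genes. On the V side lie 88, of which 54 sit between the segments, here called inside the locus, and 34 lie beyond the last V segment. The cut at the far end of the constant side fell between Ankrd9, left out at 1.92 to 2.70 CPM in the splenic and 7.62 to 9.91 CPM in the femoral libraries, and Rcor1, the first gene kept, at 24.3 to 40.3 and 46.4 to 67.6 CPM. CPM, the usual unit of counts scaled by library size, were computed here with TMM factors, which set the libraries to 1 common scale.

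In B cells the heavy chain locus is cut and joined from V, D and J segments, and its constant genes are later exchanged by class switch recombination. Enhancers at the constant end, the 3′ regulatory region (3′RR) past Igha, act on the locus over long distances, and the genes of the constant side are their nearest neighbours outside the locus. Of 183 V segment entries, 182 lie on the minus strand, so the constant end of the locus has the lower coordinates and the V end lies toward the end of the chromosome. The flanks hold ordinary genes of signalling, cell division and metabolism, among them Traf3, a brake on non-canonical NF-kappa B signalling in B cells, and Akt1, a kinase of the phosphoinositide 3-kinase pathway.

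The libraries came from 2 sources. The 6 splenic libraries were made from CD43- spleen cells, a fraction enriched for resting B cells, cultured for 2 days with lipopolysaccharide (LPS) at 5 µg/ml. LPS is a bacterial cell wall component on which B cells divide and become plasmablasts. Of these, 2 were wild-type (WT) and had LPS alone, 2 were WT and also received the histone deacetylase inhibitor SAHA at 200 ng/ml, and 2 came from KOKI mice. The 4 femoral libraries were each made from a pool of 3 mice: 2 pools from mice deficient for RAG2 and gamma c (control), 1 from KOKI mice with the same 2 deficiencies and 1 from KOKI mice that lacked RAG2 only. All femoral groups therefore lack RAG2, an enzyme without which V, D and J segments are not joined. The labels do not spell out KOKI, while the series title names a mini 3′RR, and they give neither ages nor strains. The KOKI cultures are LPS cultures by title and design text, but their treatment label also names SAHA, so they were compared with both WT groups. The labels do not say whether replicate cultures came from separate mice. The spread behind each p-value is that between these libraries, and between the WT replicates it may be technical.

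Total counts ran from 18614742 to 29314068 per library. The femoral preparations, described as B cells, held little of mature B cell markers: 6 of them summed to 11.5 to 13.9 CPM, with Cr2 at 0, against 2036 to 2786 CPM in the splenic libraries. Markers of neutrophils summed to 11395 to 19658 CPM and those of red cell precursors to 7584 to 10352 CPM in the femoral libraries, against at most 4.07 and 13.6 CPM in the splenic ones. Early B cell markers summed to 54.7 to 77.8 CPM in the femoral and 105 to 149 CPM in the splenic libraries. The higher splenic sum did not hold for each marker: Dntt was at 0 in the WT LPS, Igll1 in the WT LPS+SAHA and Rag1 in the KOKI cultures, and none was at 0 in the femoral libraries. WT LPS+SAHA replicate 2 stood apart: it had counts for 101 of the 156 flanking genes, the other libraries for 66 to 81, and it was the sole library with counts for 10 of them. KOKI LPS replicate 2 held 8499 counts of Xist, the other 9 libraries, KOKI LPS replicate 1 among them with 8, at most 9. The KOKI cultures thus differed in origin and were not repeats from 1 mouse, while the WT cultures showed no such difference. KOKI LPS replicate 2 also differed from every WT culture in Xist, and this enters each splenic KOKI comparison.

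The 2 sides differed in make-up and in level. The constant side held 44 protein-coding genes, 20.2 per Mb, and 28 of its 68 genes reached 1 CPM in every library. Beyond the V end there were 16 protein-coding genes, 4.03 per Mb, and 9 of 34 genes reached that level everywhere. Inside the locus 39 of 54 entries were pseudogenes, 22 of them processed copies of genes from elsewhere. Of the 54, 16 belonged to immunoglobulin classes under other names, 2 of them D segments and the rest pseudogenes, and 0 of 54 reached 1 CPM in every library. Among all 46959 genes, 26.2% to 29.6% reached 1 CPM in a library. In all, 35 of the 156 genes had 0 counts throughout, 8 of them on the constant side, 19 inside the locus and 8 beyond it.

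Summed over the constant side, the splenic libraries held 1144 CPM at the lowest, 1436 at the median and 1501 at the highest, and the femoral ones 1298 and 1762 CPM in the control and 1995 and 2094 CPM in the KOKI pools. The V side summed to 303, 389 and 433 CPM in the splenic libraries at the lowest, median and highest, and to 477 and 489 CPM in the control and 358 and 372 CPM in the KOKI pools. The ranges of the 2 tissues overlapped on both sides, and the KOKI pools had the highest sums of the constant side. Such sums weigh abundant genes most, among them Crip1, which was also higher in the KOKI pools (values below). By the median protein-coding gene per kilobase of exon, the constant side stood at 2.63 and 3.60 CPM in the control and 4.43 and 3.30 CPM in the KOKI pools, which overlapped. Almost all of the V side's sum came from beyond the locus, since the 54 entries inside it summed to 2.51 to 13.1 CPM in the splenic and 2.22 to 4.97 CPM in the femoral libraries. Per kilobase of exon, the median protein-coding gene of the constant side stood at 1.58 to 2.77 CPM in the splenic and 2.63 to 4.43 CPM in the femoral libraries, and that of the V side at 0.0085 to 0.161 and 0.0189 to 0.0740 CPM. The sides are stretches of 1 chromosome and were not put to a test.

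**Figure D1:**
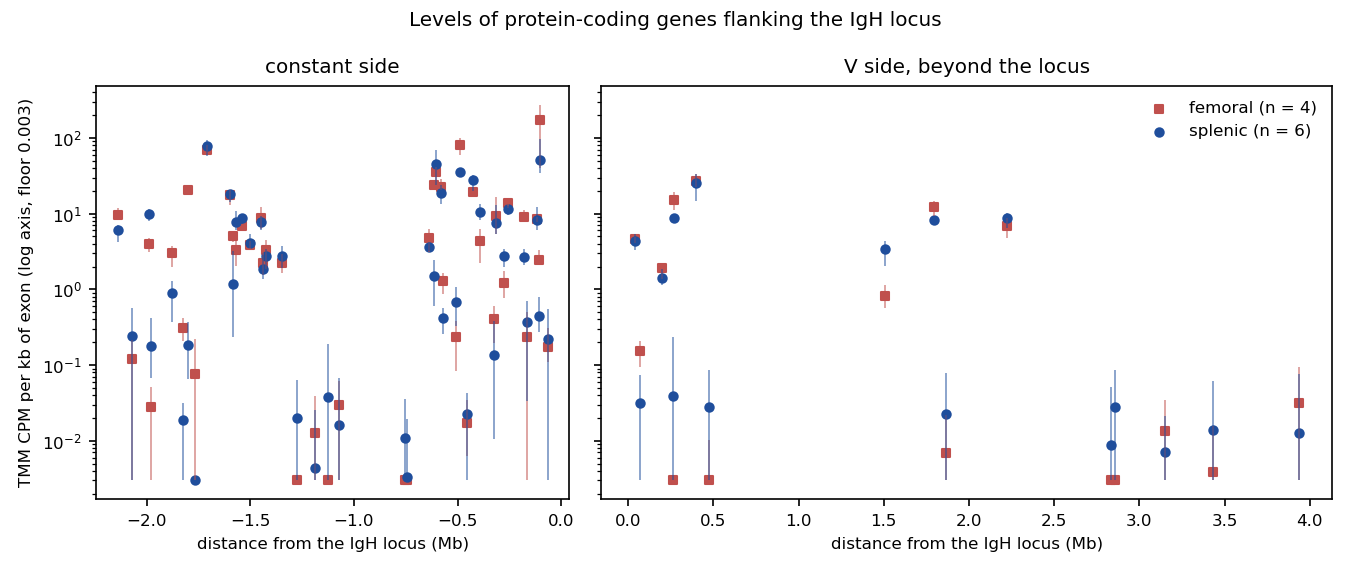
Mean level of each protein-coding gene on the constant side (left) and beyond the V end (right), in TMM CPM per kilobase of exon on a log axis, against its distance from the IgH locus in Mb. Circles are the mean of 6 splenic and squares of 4 femoral libraries, lines run from the lowest to the highest library, and values under 0.003 are drawn at 0.003. The right panel has 16 genes, 7 of which reached 1 CPM in every library.

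Per kilobase, 2010107E04Rik, which encodes a small subunit of mitochondrial ATP synthase, led in both tissues with means of 671 (spleen) and 490 CPM (femur). It was followed in the splenic libraries by Eif5, a translation initiation factor, at 78.9 CPM per kb, the small nucleolar RNA Snora28 inside an Eif5 intron at 76.3, Crip1, a small LIM-domain protein, at 51.3, Siva1, a pro-apoptotic adaptor, at 45.8, and Pld4, an endolysosomal nuclease, at 35.7. The splenic ranges of Eif5 (57.7 to 93.8) and Snora28 (57.2 to 98.2) overlapped, as did those of Crip1 (34.7 to 97.8), Siva1 (23.9 to 68.7) and Pld4 (32.2 to 39.8). Ncapg2, a subunit of the condensin II complex that compacts chromosomes in mitosis, had the highest level per kilobase of the V side, at 25.5 CPM in the splenic and 27.1 CPM in the femoral libraries.

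Inside the locus a single gene stood out, the long non-coding RNA gene Gm30948 (12:115262684-115287908). It lies on the plus strand, opposite to the V segments, has 4827 bases of exon and spans the V segment Ighv1-57. It had 42 and 83 counts in the WT LPS cultures, 177 and 166 in the WT LPS+SAHA cultures, and 0 in both KOKI cultures. That is 1.79 and 3.09 CPM (mean 2.44 ± 0.92, SD, n = 2) with LPS and 10.2 and 7.74 CPM (8.95 ± 1.70, n = 2) with LPS and SAHA. The 3 splenic groups did not overlap. The other entries inside the locus were low: after Gm30948 the most counts went to Adam6b and the processed pseudogenes Gm9134, Gm9517 and Gm9260, each at most 1.49 CPM in any library. In the femoral libraries Gm30948 had 25 and 19 counts in the control pools, 4 in the KOKI pool deficient for RAG2 and gamma c and 14 in the KOKI pool deficient for RAG2.

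The stretch before the start of Gm30948 is shown with those of Siva1 and Ncapg2, 1 gene of each flank that differed between KOKI and WT LPS+SAHA cultures and has a RefSeq entry, because their base composition differs. They are not the largest differences. Gm6768, which differed more, has no entry. On the constant side Ckb (log2 2.72), Cdc42bpb (1.27) and Ahnak2 differed more than Siva1 (1.15) and have entries that are not shown. Sequences are from RefSeq on GRCm38.p6, end at or before the annotated start, and lie at 12:115262401-115262650, 12:112644578-112644827 and 12:116405186-116405401, all on the plus strand. Capitals mark TTTCCCGC or its reverse complement, 1 of 2 E2F motif spellings searched.
Gm30948: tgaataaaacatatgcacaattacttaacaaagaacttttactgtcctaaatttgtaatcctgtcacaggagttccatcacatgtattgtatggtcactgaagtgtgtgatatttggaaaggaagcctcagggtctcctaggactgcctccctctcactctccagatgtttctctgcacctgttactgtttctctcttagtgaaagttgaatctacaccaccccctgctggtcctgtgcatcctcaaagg
Siva1: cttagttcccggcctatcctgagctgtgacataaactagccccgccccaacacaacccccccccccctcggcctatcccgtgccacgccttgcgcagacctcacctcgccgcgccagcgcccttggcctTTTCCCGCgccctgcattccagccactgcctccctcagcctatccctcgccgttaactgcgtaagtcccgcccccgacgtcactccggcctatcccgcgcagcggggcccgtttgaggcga
Ncapg2: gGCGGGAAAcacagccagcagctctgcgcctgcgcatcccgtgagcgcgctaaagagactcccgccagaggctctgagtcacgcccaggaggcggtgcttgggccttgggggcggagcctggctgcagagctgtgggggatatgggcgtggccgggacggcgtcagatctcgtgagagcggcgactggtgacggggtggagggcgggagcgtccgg
The 250 bases before the start of Gm30948 hold 0 CG pairs and have 42.8% G and C, while those of Siva1 hold 24 CG pairs at 67.6%. The stretch of Ncapg2, cut to 216 bases where the deposited gene begins, holds 21. Across the flanks, 63 genes matched 75 RefSeq promoter entries, and the median over the 250 bases was 21 CG pairs and 66.4% G and C on the constant side, 11 and 52.2% on the V side, and 6 and 52.4% over all 32851 promoter entries. The E2F letters TTTCCCGC or TTTGGCGC, on either strand, occurred in 2 of the 75 entries, those of Siva1 and Ncapg2, and in 1.3% of all promoters. The octamer ATGCAAAT of immunoglobulin promoters, on either strand, occurred in 0 of 75 entries and in 1.6% of all promoters. These matches describe letters in a window and nothing more.

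In the comparison of KOKI with WT LPS cultures, 55 of the 156 genes had enough counts to be tested. Of these 1 rose and 2 fell with an adjusted p under 0.05 in edgeR's quasi-likelihood test, against 4.08% of all 15342 genes tested (2.25% higher and 1.83% lower), so the share of 3 in 55 was near the background. All 3 lie on the V side: Gm6768 rose, and Gm30948 and Rapgef5 fell. In bulk RNA, fewer cells of a type and less RNA per cell cannot be told apart. Without KOKI LPS replicate 2 the count was 2, Gm30948 and Gm6768.

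Gm30948, at 0 counts in both KOKI cultures, was at least 34.5-fold lower than in the WT LPS cultures, where it pooled to 2.48 CPM, and at least 123-fold lower than in the WT LPS+SAHA cultures at 8.82 CPM (edgeR adjusted p = 0.00432 and 0.00071). These bounds take 3 counts over both KOKI libraries, 0.0719 CPM, as the most that a count of 0 allows. They cover counting error only. Both differences passed the threshold in 10 of 10 alternative analyses. The same KOKI cultures also had lower counts than the WT LPS cultures over most V segments near it. The closest segment with many counts, Ighv8-8, stood at 23.2 and 26.2 CPM in the WT LPS and at 7.10 and 10.2 CPM in the KOKI cultures, and Ighv1-61 at 5.02 and 5.88 against 1.03 and 1.26 CPM. Ighv1-55 stood at 19.9 and 22.2 CPM in the WT LPS and at 0.867 and 0.286 CPM in the KOKI cultures, Ighv1-58 at 2.72 and 3.50 CPM against 0 and 0, and Ighv1-59 at 4.81 and 4.32 against 0.372 and 0.0571 CPM. Ighv1-54, nearer to the constant end, did not share this, with 8.34 and 7.25 CPM in the WT LPS and 11.0 and 11.1 CPM in the KOKI cultures. V segments resemble each other and their counts are uncertain. Whether the low counts of Gm30948 and of these segments have a common source was not tested.

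Gm6768, a processed pseudogene 3251 kb beyond the V end (12:119260934-119264272), stood at 6.81 and 5.66 CPM (6.23 ± 0.82, n = 2) in the WT LPS, 4.01 and 5.08 CPM in the WT LPS+SAHA and 18.7 and 21.1 CPM (19.9 ± 1.69, n = 2) in the KOKI cultures. Every KOKI value lay above every other splenic value, and the femoral pools, controls included, stood at 14.8 to 17.6 CPM. The rise over WT LPS was 3.25-fold (log2 1.70, SE 0.22, edgeR adjusted p = 0.00496) and passed in 10 of 10 alternatives. Reads of a processed pseudogene may come from the parent gene, so its count is uncertain. Rapgef5, an exchange factor for Rap GTPases that lies 1506 kb beyond the V end, had 15.2 and 17.6 CPM in the WT LPS, 14.3 and 16.1 CPM in the WT LPS+SAHA and 9.46 and 8.23 CPM in the KOKI cultures. The KOKI cultures did not overlap with the other splenic cultures. The fall (log2 -0.87, SE 0.19, edgeR adjusted p = 0.0432) passed in 4 of 10 alternatives and in 1 of the 6 that left out a library, with adjusted p up to 0.215.

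On the constant side, next to the 3′RR, 0 of 40 tested genes passed in KOKI against WT LPS with edgeR, 8 of them at an unadjusted p under 0.05 (2678 of all 15342 genes). With DESeq2, 2 passed (Ahnak2 and Ckb), against 7.15% of all genes. Their median log2 difference was -0.07, against -0.02 over all genes, and 18 of 40 were above 0. The entry nearest to Igha, the small nuclear RNA gene Gm25622, had 0 counts in every library. Tmem121, at 65.3 kb, had 0 and 0.0744 CPM in the WT LPS, 0.401 and 0.0933 CPM in the WT LPS+SAHA and 0.867 and 0.628 CPM in the KOKI cultures. Both KOKI values were the highest, but all lay under 1 CPM and the difference did not pass (log2 4.09, SE 1.30, edgeR adjusted p = 0.148). The genes given next, among the nearest with at least 1 CPM, had intervals that included 0. Crip2, at 109 kb, is also among the nearest, and its interval is not given here. The long non-coding 4930427A07Rik, at 88.8 kb, differed by log2 -0.10 (95% interval -0.49 to 0.29), Crip1, at 101 kb, by -0.08 (-1.01 to 0.85), Mta1, a subunit of the NuRD chromatin remodelling complex at 118 kb, by -0.18 (-0.83 to 0.46), and Pacs2, a membrane traffic protein at 180 kb, by -0.28 (-0.69 to 0.12). Brf1, Btbd6, Nudt14, Jag2 and Gpr132, at 254 to 394 kb, differed by log2 -0.17, 0.20, 0.35, 1.90 and -0.31, with edgeR adjusted p of 0.4 or more. The 16 tested genes within 500 kb of the constant end had a median of log2 -0.09.

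On the V side the nearest genes likewise did not pass. Wdr60, an intraflagellar transport gene, and Esyt2, at 197 and 271 kb, differed by log2 0.34 and 0.31, and Gm6750, at 498 kb, by -0.20. Zfp386, a zinc finger protein gene 37.6 kb past the last V segment, stood at 44.3 and 35.8 CPM in the WT LPS and 47.6 and 41.4 CPM in the KOKI cultures (log2 0.18, SE 0.15). Gm20658, on the opposite strand to the neuropeptide receptor gene Vipr2 and within its span, had 8 and 17 counts in the WT LPS and 0 in both KOKI cultures, at least 6.9-fold lower, with an edgeR adjusted p of 0.111. Ahnak2, the giant scaffold protein gene on the constant side, had 9 and 11 counts against 0 and 0, at least 5.52-fold lower (edgeR adjusted p = 0.0969). Neither difference passed the threshold. Ckb, the brain-type creatine kinase, had 0.468 and 0.967 CPM in the WT LPS and 3.06 and 4.68 CPM in the KOKI cultures. This difference also missed the threshold (log2 2.43, SE 0.62, edgeR adjusted p = 0.077).

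**Figure D2:**
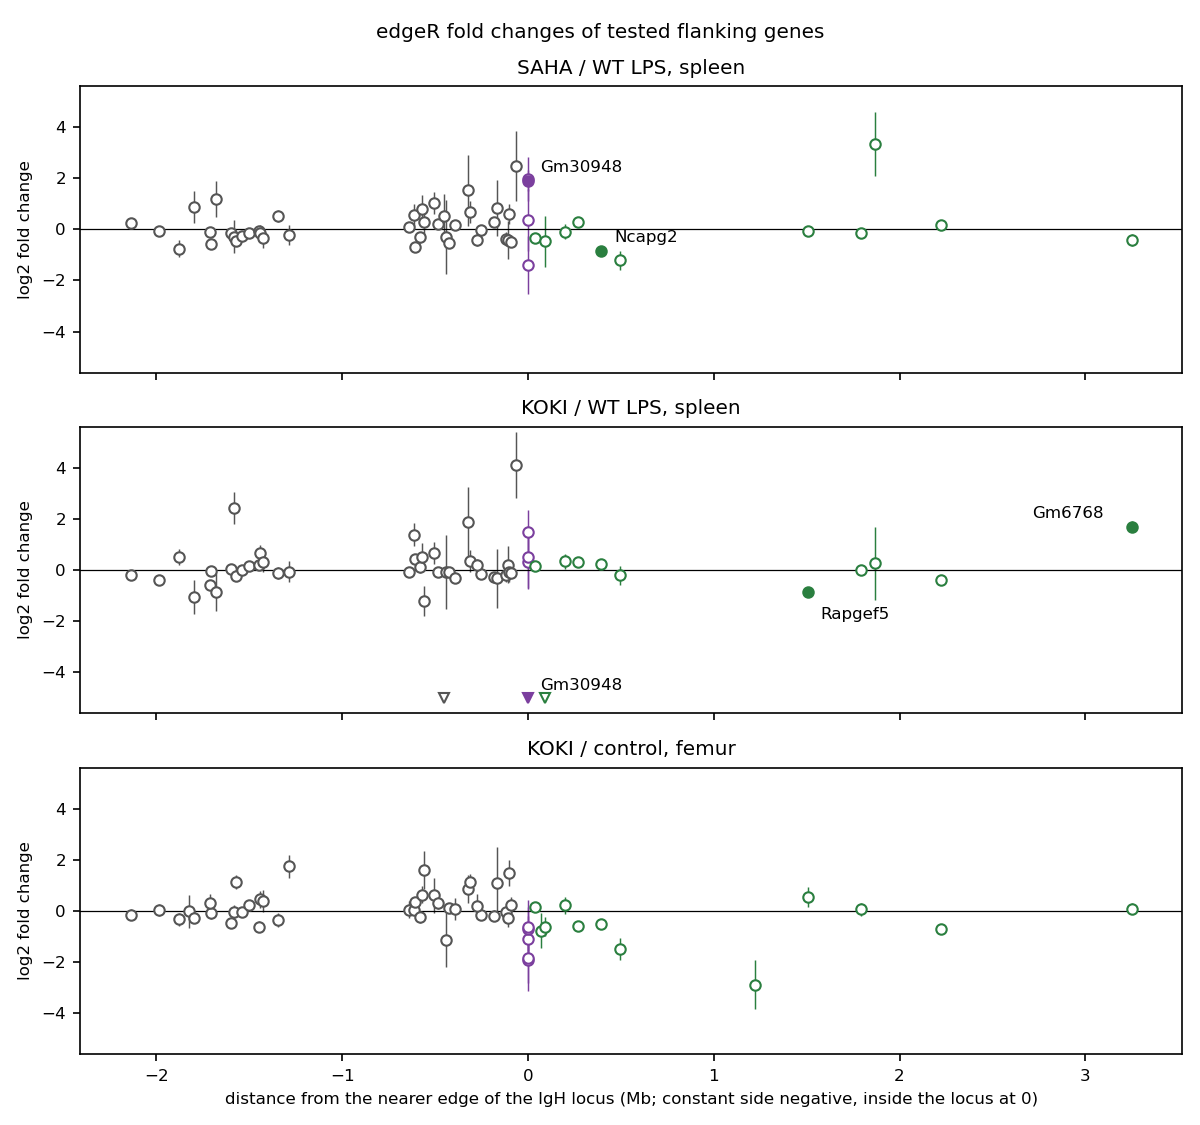
Log2 fold change (edgeR) of each tested flanking gene against its distance from the nearer edge of the IgH locus in Mb, constant side negative, in SAHA against WT LPS, KOKI against WT LPS and femoral KOKI against control. Bars are standard errors, grey marks the constant side, purple the genes inside the locus (drawn at 0) and green those beyond it; filled symbols passed the threshold, and triangles mark values below -5. The filled symbols are Gm30948 and Ncapg2 (SAHA) and Gm30948, Rapgef5 and Gm6768 (KOKI), all on the V side.

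With SAHA, 1 of the same 55 genes rose and 1 fell (edgeR), against 4.64% of all genes (0.952% higher and 3.69% lower). This fit left out the number that WT LPS and WT LPS+SAHA cultures share in their titles. With that number as a block, more genes passed, on the flanks and over all genes (values in the closing sections). Gm30948 rose 3.71-fold (log2 1.89, SE 0.41, edgeR adjusted p = 0.0493) and Ncapg2 fell (log2 -0.84, SE 0.14, edgeR adjusted p = 0.0279). The comparison shares its WT LPS controls with that of KOKI, in which Gm30948 was at least 34.5-fold lower and Ncapg2 differed by log2 0.25 without passing. Without WT LPS+SAHA replicate 2, 0 of 57 genes passed with edgeR, 12 of them at an unadjusted p under 0.05, and 0 genes passed in the whole table. The rise of Gm30948 passed in 3 of 10 alternatives and in 0 of the 6 that left out a library (adjusted p up to 0.197), and the fall of Ncapg2 in 4 of 10 and 1 of 6 (up to 0.139).

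Ncapg2 stood at 203 and 170 CPM (186 ± 23.2, n = 2) in the WT LPS, 96.9 and 106 CPM (102 ± 6.63, n = 2) in the WT LPS+SAHA and 224 and 212 CPM (218 ± 8.60, n = 2) in the KOKI cultures. The 3 groups did not overlap, and the SAHA cultures were lowest. Of 8 condensin genes tested, 4 fell with SAHA, against 3.69% of all genes: Ncapg2, Ncapg (log2 -1.09), Smc2 (-0.94) and Ncaph (-0.72), with a list median of -0.72 against 0.02 over all genes. The other 4, among them the condensin II subunits Ncapd3 (-0.20) and Ncaph2 (-0.24), did not pass. In KOKI against WT LPS these 8 genes stood at log2 0.25 to 0.47, with edgeR adjusted p of 0.181 or more. The condensin list was drawn up with earlier results of these libraries known.

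The constant side had 0 of 40 genes passing with SAHA in edgeR, 6 at an unadjusted p under 0.05 (3876 of all 15342 genes), and 3 passing with DESeq2 (11.2% of all genes), all lower: Eif5, Siva1 and Cdca4. Eif5 stood at 381 and 351 CPM with LPS and at 234 and 252 CPM with SAHA (log2 -0.56, SE 0.15, edgeR adjusted p = 0.0676). Siva1 had 41.0 and 32.1 against 25.2 and 18.7 CPM (log2 -0.70, SE 0.19, edgeR adjusted p = 0.0712), and Cdca4, a gene of the cell division cycle associated family, 75.7 and 78.4 against 48.8 and 55.8 CPM (log2 -0.53, SE 0.14, edgeR adjusted p = 0.0725). In each of the 3 the groups did not overlap, while edgeR's main test did not pass. Eif5 and Siva1 each passed in 3 of 10 alternatives. With 2 libraries a group, values often fail to overlap without a difference, and the share over all genes is not given here. The medians were log2 -0.07 on the constant side, -0.10 on the V side and 0.02 over all genes.

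Set against the WT LPS+SAHA cultures, the KOKI cultures differed at 11 of 55 flanking genes (edgeR), 7 higher and 4 lower, against 23.7% of all genes (14.1% higher and 9.64% lower). The share of 11 in 55 was below the background. On the constant side 5 of 40 passed and on the V side 6 of 15. Higher in KOKI were Gm6768 (log2 2.12), Ckb (2.72), Cdc42bpb, a kinase acting on the actin cytoskeleton (1.27), Siva1 (1.15), Ncapg2 (1.09), Eif5 (0.53) and Zfp386 (0.52). Lower were Gm30948, Ahnak2 (at least 7.87-fold), Rapgef5 (log2 -0.79) and Sp4, a transcription factor that binds GC boxes (-0.55). Siva1 stood at 53.8 and 44.3 CPM in the KOKI cultures, above each of the other 4 splenic values. Without KOKI LPS replicate 2 the count was 4 of 65, against 9.6% of all genes, and without KOKI LPS replicate 1 it was 5 of 61, against 10.5%. Without WT LPS+SAHA replicate 1 it was 6 of 64 (10.9%), and without replicate 2 it was 7 of 57 (13.7%). Gm30948, Gm6768, Siva1 and Ncapg2 passed in 10 of 10 alternatives, Ckb in 8, Cdc42bpb and Rapgef5 in 7, Sp4 and Zfp386 in 6 and Eif5 in 5. Ahnak2 passed in 2 of 8, and in 0 of the 6 that left out a library. Of the 8 condensin genes, 7 were higher in KOKI, with Ncapg at log2 1.48 and Ncaph2, the exception, at 0.51 (edgeR adjusted p = 0.0655).

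**Figure D3:**
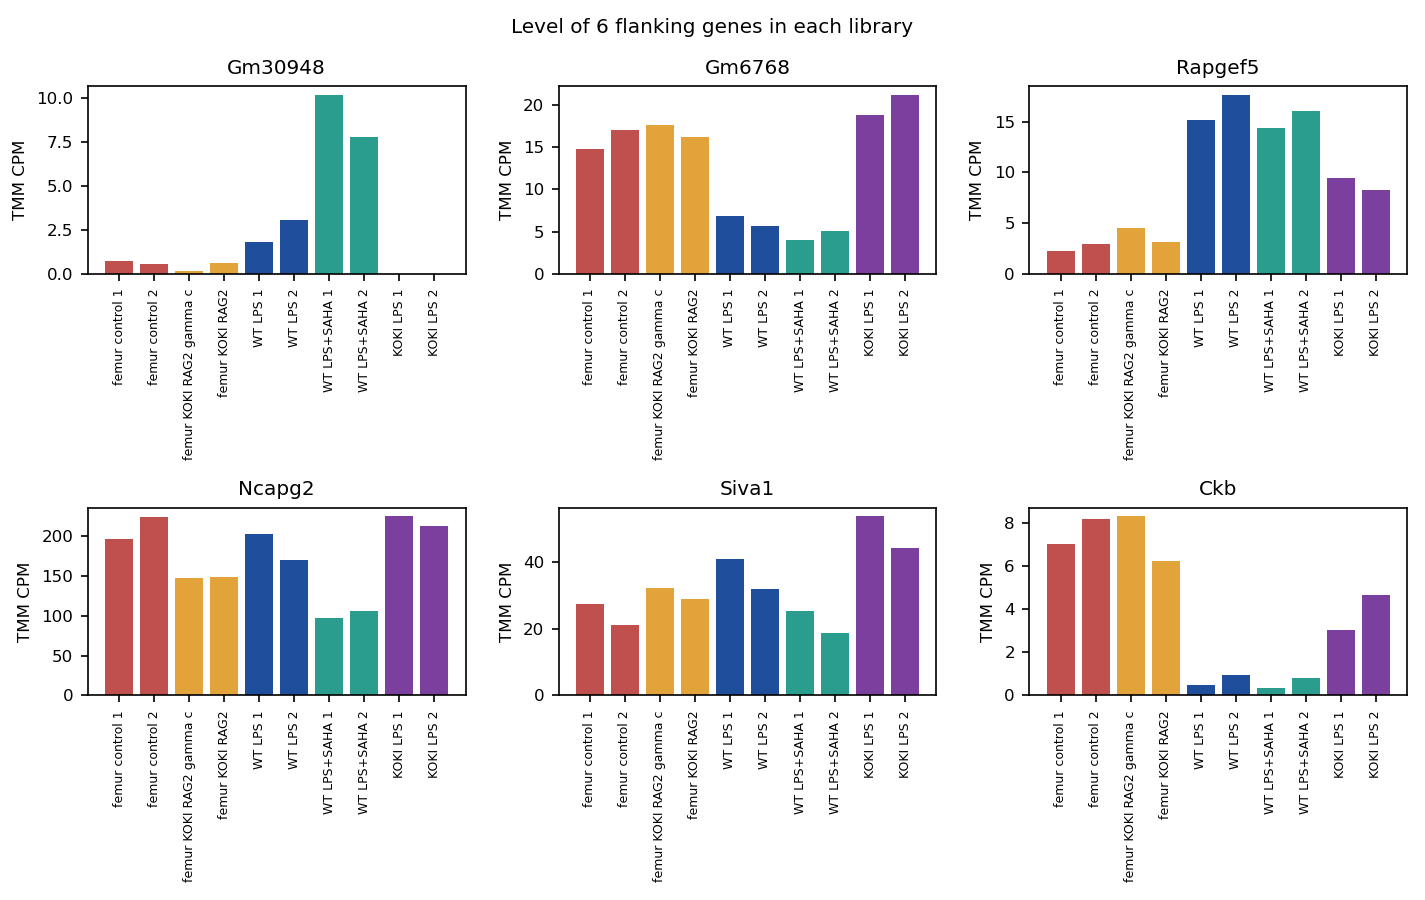
TMM CPM of 6 flanking genes in each of the 10 libraries, 1 bar a library, coloured by group, with axes from 0. The femoral KOKI groups share 1 colour. Gm30948 is at 0 in both KOKI LPS bars and reaches 10.2 CPM with SAHA, Gm6768 reaches 21.1 CPM in KOKI LPS replicate 2, and Ncapg2 is lowest, at 96.9 CPM, in WT LPS+SAHA replicate 1.

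Cell type markers moved with these groups. The 4 plasmablast markers, none at 0, summed to 198 to 208 CPM in the WT LPS, 104 to 109 CPM in the WT LPS+SAHA and 677 to 798 CPM in the KOKI cultures. The 6 markers of macrophages and monocytes summed to 26.8 to 27.5, 46.2 to 47.9 and 14.2 CPM in the same order, with C1qa at 0 in the KOKI cultures. The part of either in the differences of the flanking genes was not tested.

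In the femoral pools, 0 of 55 tested flanking genes differed between KOKI and control with edgeR, against 0.0301% of all genes. At an unadjusted p under 0.05 there were 11, and 2687 of all 16624 genes. DESeq2 called 3, against 4.14% of all genes: 2010107E04Rik, Trmt61a, a tRNA methyltransferase subunit, and the pseudogene Gm6750. The constant side median was log2 0.06 over 38 genes and the V side median -0.64 over 17, against -0.02 over all genes. Trmt61a had 4.91 and 5.25 CPM in the control and 10.8 and 11.3 CPM in the KOKI pools (log2 1.13, SE 0.26, edgeR adjusted p = 0.132). Crip1 had 90.3 and 325 CPM against 521 and 627 CPM (log2 1.49, SE 0.50, edgeR adjusted p = 0.222). With 2 libraries a group, values often fail to overlap without a difference. In both genes the groups did not overlap. Neither did the 4 bone stroma markers, none at 0, which summed to 531 and 1248 CPM in the control and 2286 and 2227 CPM in the KOKI pools, nor the 6 early B cell markers, none at 0, at 56.5 and 54.7 against 77.8 and 76.2 CPM. The part of either in these differences was not tested. The KOKI pool that lacked RAG2 only also differed from both control pools in gamma c. In that pool the KOKI and gamma c differences cannot be told apart. Without control pool 1, 9 of 58 flanking genes passed, against 12.2% of all genes, and without control pool 2, 14 of 60, against 19.9%. Each of these fits has a single control pool, which is assumed to vary like the 2 KOKI pools of different background.

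The difference between the KOKI effect in spleen and in femur was tested directly, and 1 of 69 genes passed, against 0.846% of all genes (0.416% higher and 0.431% lower). It was Gm30948, lower in the splenic contrast (log2 -7.94, SE 1.46, edgeR adjusted p = 0.0367). Its size depends on how a group at 0 is fitted and is no measure of fold. Against the matched femoral background, where KOKI and control pools both lacked RAG2 and gamma c, it did not pass. It passed in 5 of 11 alternatives and not without KOKI LPS replicate 2, where 0 of 72 genes passed with edgeR and 11 had an unadjusted p under 0.05. Gm6768 had a difference of log2 1.59 (SE 0.33, edgeR adjusted p = 0.0528).

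Between the splenic and the femoral libraries, 27 of 69 flanking genes differed (edgeR), 11 higher and 16 lower in spleen, against 51.3% of all genes (25% higher and 26.3% lower) and 47.8% of the rest of chromosome 12. The constant side had 8 higher and 11 lower of 47, the genes beyond the V end 2 higher and 5 lower of 14. Every splenic value lay outside the femoral range for 34.0% of the constant side's and 27.3% of the V side's tested genes, against 37.2% of all genes tested. The 2 sets differ in tissue, genotype, culture and LPS at once, which cannot be told apart, and in the cell type markers given above.

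Of 11 immune signalling genes on the flanks, 10 were tested, and 2 were higher and 5 lower in spleen. Beside this and the lists that follow stand the 51.3% of all genes that passed, 25% higher and 26.3% lower. Traf3 had a lowest, median and highest level of 59.2, 75.6 and 84.0 CPM in the splenic libraries and 23.2, 34.9, 33.2 and 25.7 CPM in the femoral ones (log2 1.30, SE 0.14, edgeR adjusted p = 8.83e-06). The tissues did not overlap. Of the 11 genes of its pathway, 10 were higher in spleen, against 25% of all genes, with a list median of log2 1.77 against 0.05 over all genes, and with the receptors Tnfrsf13c (7.12) and Cd40 (4.53), both found on mature B cells, leading and Map3k14 the exception at 0.29. Gpr132, a receptor of lymphocytes and macrophages, was also higher (log2 1.26, SE 0.25). Akt1, at 55.1 to 98.2 CPM in the splenic and 83.3 to 118 CPM in the femoral libraries, did not pass (log2 -0.24, edgeR adjusted p = 0.246).

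Among the genes lower in spleen, Tnfaip2, a protein of myeloid and endothelial cells induced by tumour necrosis factor, had 0.330, 0.835 and 1.87 CPM as lowest, median and highest in the splenic libraries and 120, 104, 98.4 and 87.7 CPM in the femoral ones. It had the largest fold of all flanking genes that passed here (log2 -6.96, SE 0.16, edgeR adjusted p = 7.35e-11). Pld4 (log2 -1.21), Crip1 (-1.83), Crip2 (-2.43), a LIM-domain relative of Crip1, and Vipr2 (-2.30) were lower too. Vipr2 passed in 5 of 11 alternatives. Pld4, unlike Tnfaip2, was at 63.6 CPM or more in every splenic library.

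All 4 metabolic and lipid transfer genes that passed were lower in spleen, of 5 tested and 6 named. Adssl1, an adenylosuccinate synthase of muscle, had 1.11, 2.39 and 4.51 CPM as lowest, median and highest in the splenic libraries and 48.7, 38.3, 50.6 and 39.3 CPM in the femoral ones (log2 -4.10, SE 0.18). Ckb fell by 2.64, Pacs2 by 1.71 and Esyt2, a lipid transfer protein at contacts between endoplasmic reticulum and plasma membrane, by 0.64 on the log2 scale. Of these 4 genes, Ckb, Pacs2 and Adssl1 lie on the constant side and Esyt2 271 kb beyond the V end.

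Of 8 genes of cell division and DNA repair, all tested, Cdca4 was higher (log2 0.48) and Cdca7l lower (-0.58). Ncapg2 differed by log2 -0.05 (SE 0.12), the kinase gene Mark3 by 0.16, the kinesin light chain gene Klc1 by -0.05, the formin gene Inf2 by -0.39, and Xrcc3, a factor of homologous recombination, by -0.35 (SE 0.22). Of 10 genes of transcription and translation, 9 were tested: Trmt61a (1.15), Sp4 (0.50) and Bag5, a co-chaperone (0.35), were higher, and Rcor1, a subunit of the CoREST repressor complex (-0.65), and the zinc finger gene Zbtb42 (-1.74) were lower. Mta1 (-0.04), Brf1, a subunit of the RNA polymerase III factor TFIIIB (-0.20), Eif5 (0.18) and Zfp386 (-0.10) did not pass.

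Beyond the V end, Rapgef5 had the largest rise among genes that passed there, from 2.27, 2.99, 4.54 and 3.11 CPM in the femoral to 8.23, 14.7 and 17.6 CPM as lowest, median and highest in the splenic libraries (log2 1.96, SE 0.19, edgeR adjusted p = 4.39e-06). Gm20658 had the largest fall (log2 -5.17, SE 0.58). Inside the locus Adam6b, a sperm protein gene that lies between V and D segments, was the sole gene to pass of 8 tested (log2 2.98, SE 0.93, edgeR adjusted p = 0.019). It had 0, 3, 3 and 2 counts in the femoral and 6 to 32 counts in the splenic libraries. Its partner Adam6a had a single count in all 10 libraries. Of the 11 genes listed as restricted to other tissues, such as the ciliary dynein gene Dnah11 and the neuroendocrine phosphatase gene Ptprn2, Adam6b was the 1 that passed of 6 tested.

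Among the remaining genes that passed, which stand on no list of roles, Gm30238 (log2 1.505), the centrosomal protein gene Cep170b (1.46) and Btbd6 (1.24) were higher, and Exoc3l4 (-4.06), Cdc42bpb (-1.73) and Gm6768 (-0.999) were lower in spleen. Exons of Exoc3l4, Cdc42bpb, Xrcc3, Klc1, Brf1, Pacs2 and Cdca7l overlap genes on the opposite strand, and the counts of these 7 genes are uncertain. When only the WT LPS and the femoral control groups were compared, within the same fit of all 10 libraries, 24 flanking genes passed. The share of all genes that passed in this narrower comparison is not given here, so the 24 have no background beside them. Crip1 (log2 -1.01, adjusted p = 0.149), Sp4 (0.11, adjusted p = 0.599), Adam6b (2.63, adjusted p = 0.144), Vipr2 (-2.63, adjusted p = 0.108) and Cep170b (1.24, adjusted p = 0.118) then missed edgeR's threshold, while Trmt61a (2.16), Gm30238 (2.85) and Cdca4 (0.77) moved farther from 0.

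**Figure D4:**
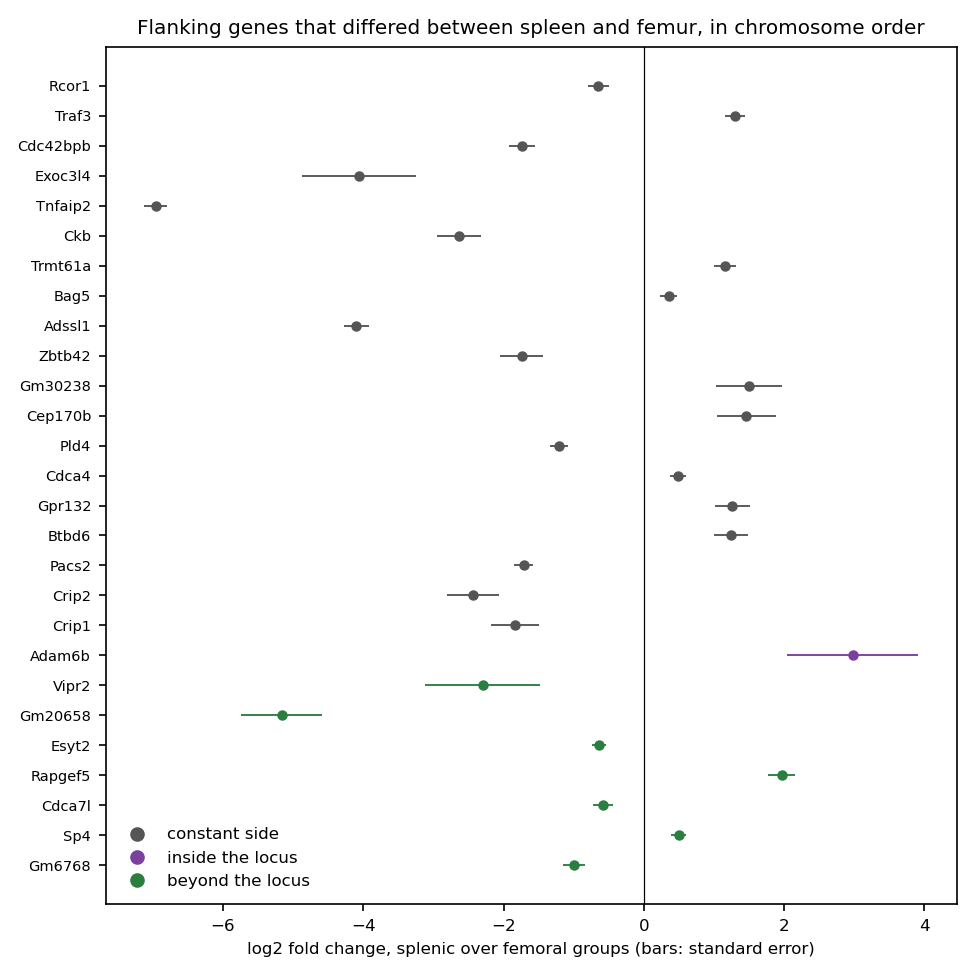
Log2 fold change of the splenic over the femoral libraries for the 27 flanking genes that passed (edgeR), in chromosome order from Rcor1 to Gm6768. Points are estimates and bars standard errors; grey is the constant side, purple inside the locus and green beyond it, and the 11 points right of 0 are higher in spleen. Tnfaip2, at -6.96, lies farthest left and Adam6b, at 2.98, farthest right.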

How the data were processed

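RNA was measured in 10 libraries made from total RNA with a stranded, ribosomal RNA depleting kit, per the labels' protocols. The authors deposited unnormalised counts per gene. Per the submitters' processing notes, STAR 2.4.0a and featureCounts of Subread 1.4.6-p1 were used with mm10. How strand and multiply matching reads were handled in counting was not given in the sources used here, so counts of pseudogenes, V segments and overlapping genes are uncertain. From the table, 100 spike-in and phiX entries (1 to 17 counts per library) were left out. GENCODE M21 symbols matched 146 of the 156 genes and gave their classes.

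Tests were made over all genes with edgeR 4.0.16 in R 4.3.3: TMM, filterByExpr (at least 10 counts in enough libraries and 15 in all), the quasi-likelihood F test and Benjamini-Hochberg adjusted p under 0.05. The 3 splenic comparisons came from 1 fit of 6 libraries, the femoral one from 4 libraries with both KOKI backgrounds together, and the splenic against femoral comparison and the difference of KOKI effects from all 10 in 6 groups, where a lone library is assumed to vary like the others. The fits were checked on simulated counts. Levels are CPM with TMM factors over all 10 libraries, n = 2 per splenic group, and intervals are 95%. A count of 0 was taken to allow 3 counts over a group, which covers counting error only. Alternatives were DESeq2 1.42.0, no filter, fewer libraries, the replicate number as a block and leaving out each library. Within groups, and between the femoral KOKI pools, chi-square per degree of freedom ran from 44.05 to 160.7, so in none of these pairs was a library a copy of the other. Other pairs were not compared in this way.

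Genes were named if called in a SAHA or KOKI comparison, if among the 10 nearest on each side with at least 1 CPM, if among the 10 largest rises or falls between spleen and femur, if inside the locus with counts, or if on a list of roles; the few with most counts stand for those inside the locus. The genes, lists and tests were chosen with earlier results of these data known. A few results on other genes are not reported here.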

Additional observations from a re-analysis of the deposited data

Results flagged for a closer look

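For Gm30948, the long non-coding RNA gene inside the IgH locus, the KOKI difference in spleen minus that in femur passed the main test. It was log2 -7.94 (SE 1.46, edgeR adjusted p = 0.0367, tested as an interaction over all 10 libraries). Against the matched femoral background, where KOKI and control pools both lacked RAG2 and gamma c, it did not pass. Both splenic KOKI cultures had 0 counts against 42 and 83 in the WT LPS cultures, while the femoral KOKI pools had 4 and 14 against 25 and 19 in the control pools. The size of the estimate depends on how a group at 0 is fitted, and it was significant in 5 of 11 alternatives (log2 -8.24 to -7.06, adjusted p 0.000132 to 0.158).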

How the results depend on the processing

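For SAHA (2 flanking genes passed), DESeq2 and the absence of a filter each gave 6, only the 4 compared libraries gave 0, and leaving out 1 library gave 0 to 1. For KOKI against WT LPS (3 genes), DESeq2 gave 5 and leaving out 1 library 2 to 4. For KOKI against WT LPS+SAHA (11 genes), leaving out 1 library gave 4 to 10. For the femoral KOKI comparison (0 genes), DESeq2 gave 3, no filter 4, and leaving out 1 library 0 to 14. For the difference of KOKI effects (1 gene), DESeq2 gave 5, no filter 8, the matched femoral background 0, and leaving out 1 library 0 to 2. The 27 genes of spleen against femur ranged from 24 to 30 over all alternatives run. Over all genes, the calls went from 712 to 1721 (DESeq2) and 1970 (no filter) for SAHA, from 626 to 1097 and 1254 for KOKI against WT LPS, from 5 to 688 and 662 in the femoral pools, and from 171 to 543 and 950 for the difference of effects. The causes were not tested.

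The splenic cultures share replicate numbers, but the labels do not say that these mark a shared animal or day. With the number as a replicate block, 9 flanking genes passed for SAHA (3413 over all genes), 5 for KOKI against WT LPS (1313) and 15 for KOKI against WT LPS+SAHA (4269). Deviations from the group means correlated over genes at 0.45 between WT LPS and WT LPS+SAHA, 0.123 between WT LPS and KOKI and 0.144 between WT LPS+SAHA and KOKI, with only 2 pairs each.

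Over 74 single-gene results and 734 alternatives, 629 kept their direction and call, 64 lost and 23 gained significance, and the other 18 changed sign, with adjusted p of 0.78 or more. With 2 libraries a group, splenic differences in genes under 1 CPM, such as those of Tmem121, Ahnak2 and Gm20658 between KOKI and WT LPS, were not resolved at this depth.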

Other observations

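Among pathway partners of flanking genes not yet described were 15 genes of the NuRD and CoREST chromatin complexes (partners of Mta1 and Rcor1). With SAHA 1 of them was lower, against 3.69% of all genes. It was the NuRD subunit Mbd3 (log2 -0.75, SE 0.13, edgeR adjusted p = 0.0277). The list median was log2 -0.18, against 0.02 over all genes. Between KOKI and WT LPS+SAHA cultures 2 were higher and 2 lower, against 14.1% and 9.64% of all genes. Between spleen and femur 5 of the 15 were higher and 3 lower, against 25% and 26.3% of all genes. Akt1, on the constant side, differed by log2 -0.32 (SE 0.23) with SAHA and by 0.42 (SE 0.23) between KOKI and WT LPS+SAHA, neither of which passed. Of the 4 genes of TFIIIB, Brf1 among them, 1 was higher in spleen than in femur, against 25% of all genes. It was the TATA-binding protein gene Tbp (log2 0.35, SE 0.11, edgeR adjusted p = 0.0216).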
